A study of Rattus norvegicus with 55 samples.

Results

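The levels of 9 metabolic enzymes of the kidney, Pck1, Fbp1, Ldhd, Gpt, Pcca, Pccb, Dao, Hao2 and Gatm, were followed through the stages of rat kidney measured in the series. They were chosen by name, as enzymes of glucose synthesis and of amino acid and organic acid breakdown. The choice was made with earlier results of these data known, so counts among them are no independent test. Each of the 9 genes had 1 probe set annotated to it among the 8799 probe sets of the array, and all 9 passed the filter on dim probe sets that left 6555 for testing. Ldhd had the largest stage difference of the 9, with no overlap between mature and immature arrays (as for 0.519% of all probe sets). It was 2.29-fold higher in mature than in immature kidney. Dao was higher as well, Gpt, Pcca and Pccb were lower, and the other 4 genes did not pass the test in that comparison. The calls of Dao (adjusted p = 0.24) and Pccb (adjusted p = 0.065) were lost when technical sets of arrays entered the limma fit as a block, and Pck1 passed without 2 arrays of high GAPDH 3′/5′ ratio (adjusted p = 1e-06).

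Total RNA from kidney was hybridised to 55 1-colour Affymetrix arrays of 1 rat series. All samples carry the title SHR kidney (SHR stands for spontaneously hypertensive rat), yet their descriptions call the rats Wistar-derived, and the labels do not settle which strain or strains were used. By their descriptions 13 arrays are immature, 14 young and 14 mature, and 14 carry no stage word. No age, sex, diet or treatment is given for any group. The labels do not tie arrays to animals, so the p-values cover only the variation among these arrays, part of which may be technical.

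Technical sets, 3 in number, were read from 42 control probe sets, since the labels name no batch. Set 1 held 6 immature and 4 mature arrays. Set 2 held 7 immature and 6 young arrays and 6 that lack a stage word, and set 3 held 8 young and 10 mature arrays and 8 that lack one. The sets are uneven across the stages, so the fits were repeated with the set as a block and inside single sets. The arrays also divide on X56596_at, a probe set of the MHC class II gene RT1-Bb: 12 arrays read 1412 to 2381 and 43 read 80.1 to 263.0, with 3 arrays above 600 in every stage group. These sides are not given by the labels. The arrays above 600 all lay in set 1 (immature and mature) or set 2 (young and no stage word). The GAPDH 3′/5′ ratio, which increases as RNA degrades, reached 7.18 and 3.47 on replicates 1 and 9 of the mature group. The next highest was 2.62, on replicate 12 of that group. The beta-actin 3′/5′ ratio was 5.08 and 5.55 on mature replicates 1 and 9, 2.82 on replicate 12 and 2.75 on replicate 5.

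The tissue label was checked against cell type markers. All 16 proximal tubule markers on the array had a mean above that of the median probe set, as did 4 of 7 liver and 2 of 5 fat markers, and none of 5 adrenal and 3 muscle markers did. The summed intensity of the proximal tubule markers was 52744 to 74460 in immature kidney, 66360 to 94398 in young kidney, 72155 to 92314 without a stage word and 53516 to 116540 in mature kidney. In whole kidney, fewer cells of a type and less RNA per cell cannot be told apart.

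The proximal tubule is the kidney's site of glucose synthesis. Pck1 (cytosolic phosphoenolpyruvate carboxykinase) turns oxaloacetate into phosphoenolpyruvate, and Fbp1 (fructose-1,6-bisphosphatase) removes a phosphate from fructose-1,6-bisphosphate further along the pathway. Carbon reaches them from lactate, glutamine and other amino acids. In the kidney, Pck1 is known to increase in acidosis and in fasting, and the same cells take up and break down filtered amino acids and organic acids.

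The promoter sequences of Pck1 and Ldhd are shown because Pck1 is the most studied control point of the pathway and Ldhd carries the largest stage difference among the 9 genes. Both are the 250 bases before the annotated start, taken from a set of RefSeq promoter sequences (GRCr8), which covered 8 of the 9 genes. Gpt is the gene without a promoter sequence in that set. Pck1 lies on chromosome 3 (182348572 to 182354521) on the plus strand, and its window is chr3:182348322-182348571. Ldhd lies on chromosome 19 (56492827 to 56497695) on the minus strand, and its window is chr19:56497696-56497945. Capitals mark matches, on either strand, to the motifs searched. These were TTACGTCA, the cyclic AMP response element known in the Pck1 promoter, its consensus palindrome TGACGTCA, the start of an HNF1 site, GTTAAT, the box motif CCAAT, the GC box GGGCGG and the TATA box TATAAA.
Pck1: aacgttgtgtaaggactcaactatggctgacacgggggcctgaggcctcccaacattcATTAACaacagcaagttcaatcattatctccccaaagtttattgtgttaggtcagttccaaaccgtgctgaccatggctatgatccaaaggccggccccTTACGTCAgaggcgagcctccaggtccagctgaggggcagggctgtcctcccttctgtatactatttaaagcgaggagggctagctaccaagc
Ldhd: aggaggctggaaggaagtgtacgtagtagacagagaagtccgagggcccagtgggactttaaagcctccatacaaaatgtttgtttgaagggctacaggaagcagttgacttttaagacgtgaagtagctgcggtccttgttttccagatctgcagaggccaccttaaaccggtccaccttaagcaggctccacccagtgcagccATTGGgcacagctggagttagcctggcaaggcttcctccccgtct
In Pck1 the match to TTACGTCA began 93 bases before the start, and a match to GTTAAT lay on the opposite strand, at 192 to 187 bases before it. In Ldhd, only CCAAT matched, on the opposite strand, at 45 to 41 bases before the start. Of the 33469 promoters in the table, TTACGTCA stood in 0.75%, its palindrome in 1.59%, GTTAAT in 6.45%, the CCAAT motif in 34%, the GC box in 30.5% and the TATA box in 12.9%. These are matches of letters and say nothing of binding in these samples.

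Across the 4 groups, 5 of the 9 genes differed by the moderated F test of limma (adjusted p under 0.05), against 28.5% of all probe sets tested. They were Ldhd (adjusted p = 1e-15), Dao (adjusted p = 0.00089), Pcca (adjusted p = 0.001), Gpt (adjusted p = 0.002) and Pccb (adjusted p = 0.0056). With the technical set as a block 2 did, Ldhd and Pcca, against 20.5% of all probe sets. In mature against immature kidney, 2 genes rose and 3 fell, where 10.3% of all probe sets rose and 14.1% fell. In young against immature kidney, 2 rose and 1 fell, where 9.47% rose and 9.21% fell. Without a stage word against immature, 2 rose and 3 fell, where 12.7% rose and 14.4% fell. With the block, 1 rose and 2 fell in mature, 1 rose and 0 fell in young, and 1 rose and 1 fell in the arrays without a stage word, where 12.6%, 8.89% and 20% of probe sets were called in either direction. These comparisons share the 13 immature arrays. Among the later groups 0 of the 9 genes passed in limma. At an unadjusted p under 0.05, Gpt, Pccb and Gatm were lower in mature than in young kidney, Gatm was lower without a stage word than in young kidney, and Gpt was lower in mature kidney than without a stage word. Mature Gatm had a mean log2 of 12.01, and 12.31 without the 2 arrays of high GAPDH ratio, against 12.40 in young kidney. In the same order these means were 6.86, 6.83 and 7.34 for Gpt and 7.69, 7.78 and 8.05 for Pccb. Mature against young kidney had 0.61% of probe sets higher and 1.19% lower, and the arrays without a stage word against young ones 0.061% and 0.168%. Mature against arrays without a stage word had 0.198% higher and 0.214% lower.

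**Figure D1:**
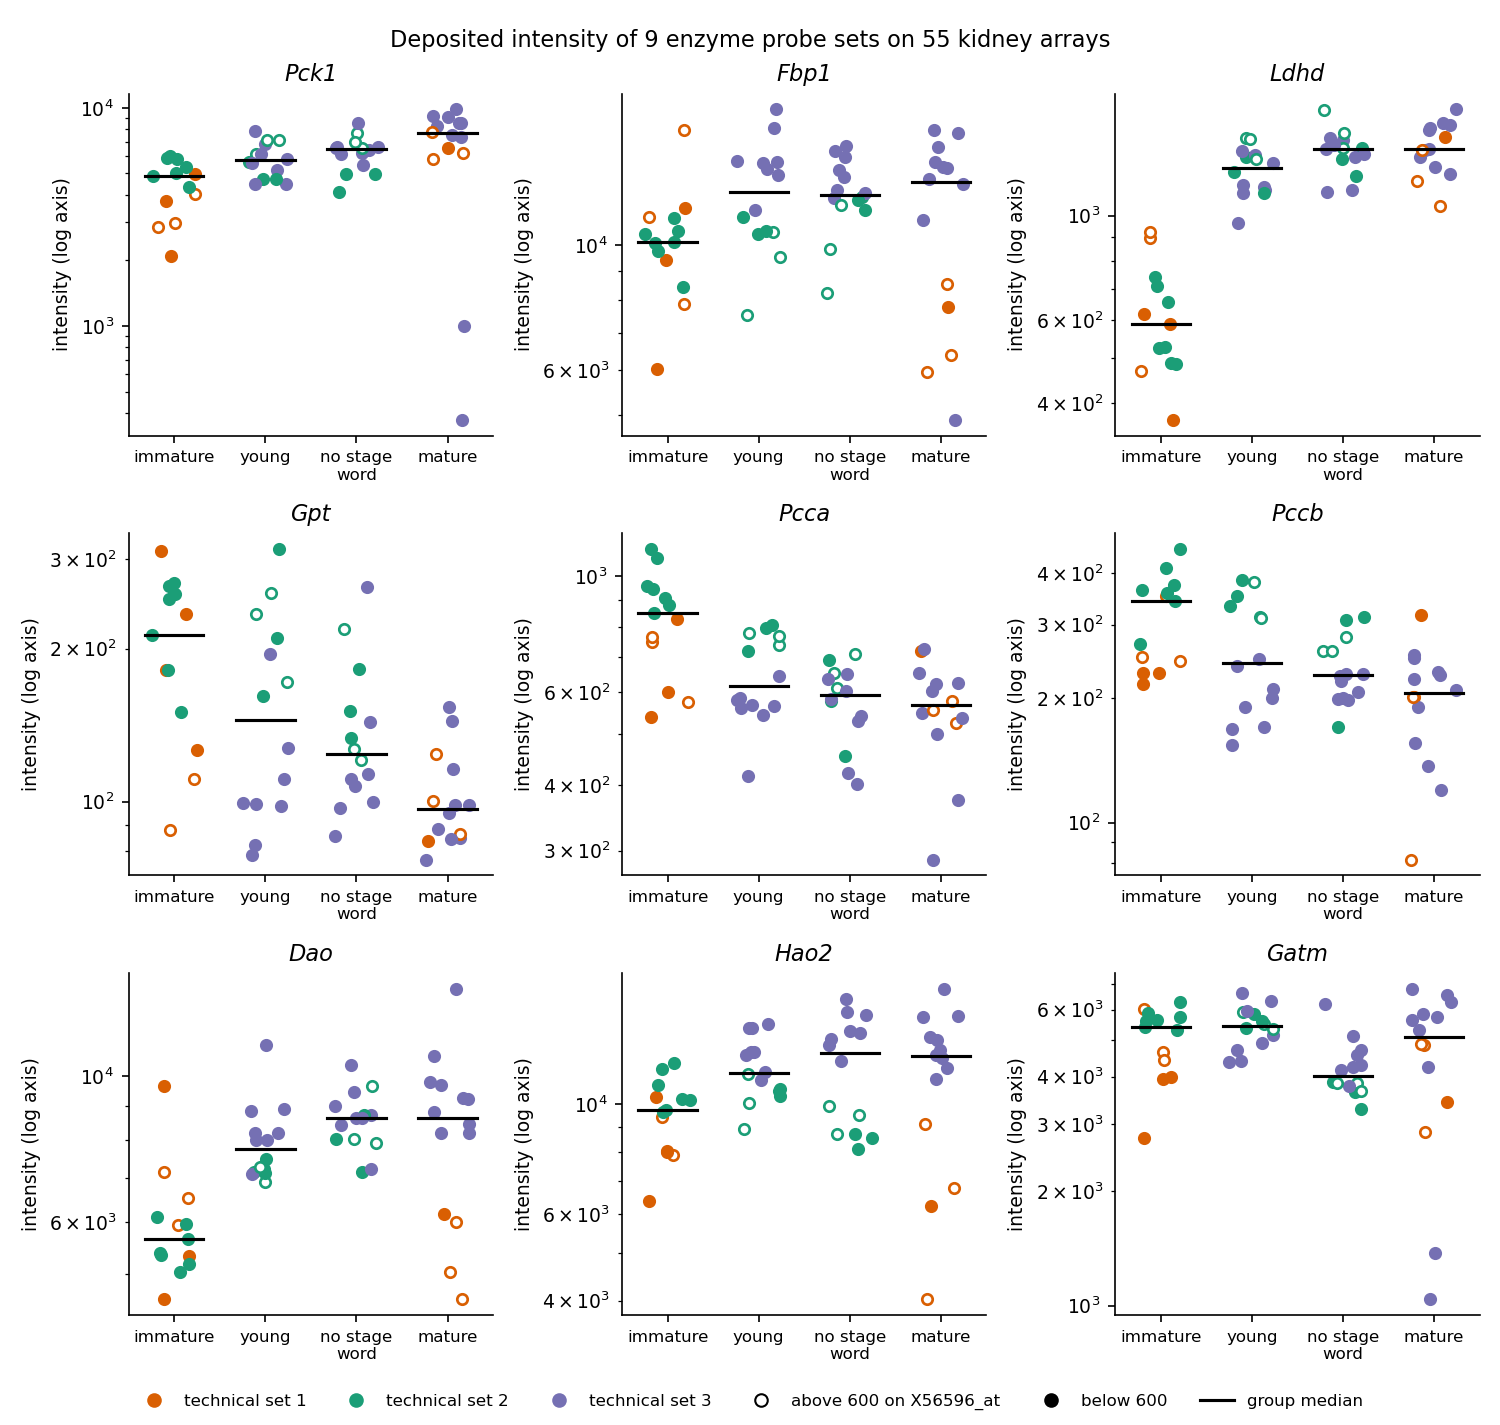
Deposited intensity (log axis) of the 9 probe sets on each of 55 arrays, by stage group. Colour marks the technical set, open points the arrays above 600 on X56596_at, and bars the group medians. For Ldhd every immature array (368.9 to 920.7) lies under every array of the other groups (964.8 to 1681).

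Pck1 (K03243mRNA_s_at) had a median intensity of 4862 in immature kidney (range 2094 to 6010), 5748 in young kidney (4475 to 7862), 6464 without a stage word (4123 to 8537) and 7645 in mature kidney (370.2 to 9875). The median is lowest in immature and highest in mature kidney, and the mature range is by far the widest. Its lowest values were 370.2 on mature replicate 9 and 1001 on replicate 1, both of high GAPDH ratio, while the other 12 mature arrays read 5815 to 9875. With all arrays, Pck1 did not pass in mature against immature kidney (log2 difference 0.35 ± 0.28 SE, adjusted p = 0.37). Without those 2 arrays the difference was 0.87 ± 0.13 (adjusted p = 1e-06), in a fit that called 24.9% of probe sets. It was 0.79 ± 0.12 with the technical set as a block as well (adjusted p = 3e-06, 18.4% of probe sets called). Leaving out mature replicate 9 alone was enough for a call (0.64, adjusted p = 0.013).

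Without the 2 arrays, Pck1 was also higher in young than in immature kidney (0.43 ± 0.13, adjusted p = 0.0085, 25.4% of probe sets called). It was higher without a stage word than in immature kidney too (0.53 ± 0.13, adjusted p = 0.00081, 33.7% called). With all arrays these differences had the same size, with an SE of 0.28, and did not pass (adjusted p = 0.29 for young and 0.15 for no stage word). Inside set 3 and without the 2 arrays, Pck1 was higher in mature than in young kidney (0.57 ± 0.11, adjusted p = 0.0041), where 1.6% of probe sets were called. The same difference was 0.61 ± 0.11 over all sets with the set as a block (adjusted p = 0.00069, 1.51% called). Inside set 1, which has neither array, the 4 mature arrays (5815 to 7773) lay above all 6 immature ones (2094 to 4969), as 4.94% of probe sets did in either direction. The fit inside set 1 called 0.717% of probe sets and not Pck1 (0.98 ± 0.23, adjusted p = 0.084).

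**Figure D2:**
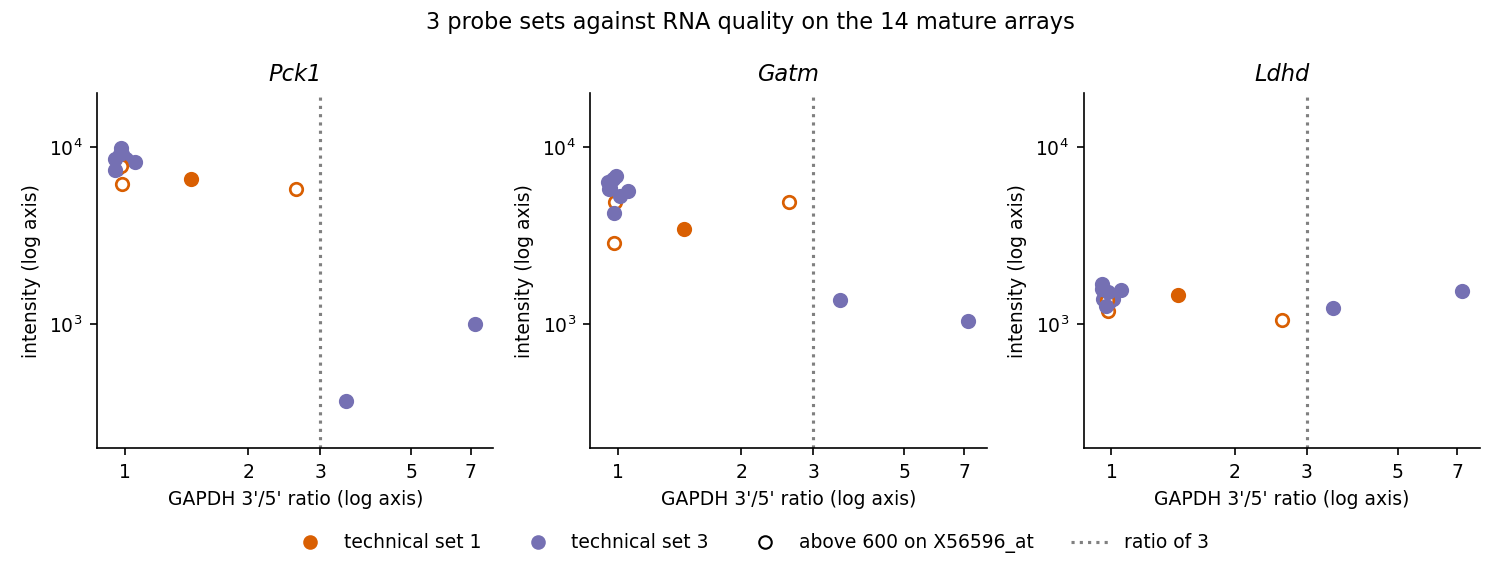
Intensity of Pck1, Gatm and Ldhd (log axis) against the GAPDH 3′/5′ ratio (log axis) on the 14 mature arrays, with a dotted line at a ratio of 3. Pck1 and Gatm are lowest on the 2 arrays right of the line, where Ldhd reads 1227 and 1534, inside the range of the others.

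Fbp1 (M86240_at) did not pass in any comparison of all arrays. Its median was 10130 in immature kidney (6044 to 15985), 12427 in young kidney (7528 to 17398), 12245 without a stage word (8211 to 14997) and 12948 in mature kidney (4903 to 15980). The groups overlap over most of their range. The mature minus immature difference was 0.09 ± 0.15 (adjusted p = 0.68). Technical set moved with Fbp1: mature arrays read 5966 to 8536 in set 1 and, but for replicate 9, 11087 to 15980 in set 3. With the set as a block the sign turned (-0.28 ± 0.14, adjusted p = 0.19), as it did with quantile normalization (-0.24).

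Ldhd (rc_AI639504_at) encodes the mitochondrial dehydrogenase of D-lactate, which passes its product on as pyruvate. It read 368.9 to 920.7 in immature kidney (median 590.0), 964.8 to 1462 in young kidney (median 1263), 1121 to 1672 without a stage word (median 1386) and 1050 to 1681 in mature kidney (median 1380). Each later group lay wholly above the immature group and overlapped the other 2. The rise was 1.20 ± 0.10 in mature kidney (2.29-fold, adjusted p = 1.1e-14), 1.17 ± 0.10 without a stage word (2.25-fold, adjusted p = 4.7e-14) and 1.04 ± 0.10 in young kidney (2.05-fold, adjusted p = 8.4e-12). Of all probe sets 0.519%, 1.22% and 0.87% failed to overlap in these comparisons, in the same order.

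Ldhd was the only one of the 9 genes called under the technical-set block in all 3 comparisons with immature kidney: 1.22 ± 0.11 in mature (adjusted p = 2e-12), 1.16 ± 0.11 without a stage word (adjusted p = 1.1e-11) and 1.03 ± 0.11 in young kidney (adjusted p = 1.1e-09). Inside set 1 the 4 mature arrays (1050 to 1468) lay above the 6 immature ones (368.9 to 920.7), but the call was lost (1.02 ± 0.26, adjusted p = 0.10). Of all probe sets 4.94% did not overlap there. Inside set 2 the 6 young arrays (1118 to 1462) lay above the 7 immature ones (484.6 to 741.0), a rise of 1.16 ± 0.11 (adjusted p = 4e-07). The fit inside set 2 called 29.3% of probe sets in young against immature kidney, and 14.7% did not overlap there. Among the later groups the differences did not pass (mature minus young 0.16 ± 0.10, adjusted p = 0.35).

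Gpt (D10354_s_at) encodes cytosolic alanine aminotransferase, which exchanges alanine for pyruvate. It was dim, since the medians of whole arrays were 136.0 to 183.3. Its median was 212.9 in immature kidney (88.0 to 311.2), 144.5 in young kidney (78.4 to 314.1), 123.9 without a stage word (85.6 to 264.1) and 96.7 in mature kidney (76.9 to 153.5). All groups overlap. It fell by 0.83 ± 0.17 in mature against immature kidney (adjusted p = 0.00032), and with the set as a block by 0.52 ± 0.18 (adjusted p = 0.042). Without a stage word the fall was 0.48 ± 0.17 (adjusted p = 0.036). That call was lost on leaving out any of 13 single arrays, with adjusted p up to 0.064, and with the block (adjusted p = 0.11). In young kidney the difference was -0.35 ± 0.17 (adjusted p = 0.15). Gpt also moved with set: young arrays read 161.6 to 314.1 in set 2 and 78.4 to 195.1 in set 3.

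Pcca (M22631_at) and Pccb (rc_AI070142_at) are the subunits of propionyl-CoA carboxylase, the mitochondrial biotin enzyme that carries carbon from valine, isoleucine, methionine and threonine toward succinyl-CoA. Pcca had a median of 848.6 in immature kidney (538.8 to 1126), 616.1 in young kidney (415.6 to 806.9), 592.9 without a stage word (402.1 to 710.1) and 566.9 in mature kidney (288.4 to 726.4). Pccb had a median of 342.1 in immature kidney (216.1 to 457.3), 242.9 in young kidney (154.3 to 384.7), 226.9 without a stage word (170.1 to 313.7) and 205.1 in mature kidney (81.4 to 316.4). Both subunits thus read highest in immature kidney by the median, with overlapping ranges.

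In mature against immature kidney Pcca fell by 0.55 ± 0.12 (adjusted p = 0.00045) and Pccb by 0.64 ± 0.15 (adjusted p = 0.0009). The lowest mature Pcca values, 288.4 and 373.9, came from the 2 arrays of high GAPDH ratio, where Pccb read 136.7 and 120.2. Without those arrays mature Pcca read 500.9 to 726.4. Its mature mean log2 was then 9.26 against 9.14 with all arrays, and 9.69 in immature kidney. For Pccb these means were 7.78, 7.69 and 8.33. With the set as a block Pcca fell by 0.35 ± 0.12 (adjusted p = 0.041), and Pccb no longer passed (-0.38 ± 0.14, adjusted p = 0.065). Inside set 1, the only set with both stages, Pcca did not pass. Its 4 mature arrays (525.9 to 718.3) overlapped the 6 immature ones (538.8 to 827.0), with mean log2 values of 9.24 and 9.42. Without a stage word Pcca fell by 0.50 ± 0.12 (adjusted p = 0.0012), and Pccb by 0.38 ± 0.15 (adjusted p = 0.048), which was lost on leaving out any of 25 single arrays. In young kidney Pcca fell by 0.34 ± 0.12 (adjusted p = 0.037), lost with the block (adjusted p = 0.10) and on leaving out any of 14 single arrays, and Pccb differed by -0.28 ± 0.15 (adjusted p = 0.18). The immature arrays differ by set: Pcca read 538.8 to 827.0 in set 1 and 848.6 to 1126 in set 2. Inside set 2 all 6 young arrays (718.1 to 806.9) lay under the 7 immature ones, and the fall of 0.32 ± 0.10 passed (adjusted p = 0.017). In that comparison 14.7% of all probe sets did not overlap and 29.3% were called.

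Dao (AB003400_at) encodes D-amino acid oxidase, a flavin enzyme of peroxisomes that is abundant in the proximal tubule. Its median was 5658 in immature kidney (4579 to 9676), 7750 in young kidney (6897 to 11140), 8643 without a stage word (7155 to 10414) and 8645 in mature kidney (4593 to 13597). The later medians lie higher, yet the mature and immature ranges overlap. The highest mature value came from replicate 1, of high GAPDH ratio. Without the 2 arrays of high ratio, mature Dao read 4593 to 10743. Its mature mean log2 was then 12.905 against 12.984 with all arrays, and 12.528 in immature kidney. Dao rose by 0.46 ± 0.11 in mature kidney (adjusted p = 0.0021), 0.53 ± 0.11 without a stage word (adjusted p = 0.0003) and 0.42 ± 0.11 in young kidney (adjusted p = 0.0061). All 3 calls were lost with the set as a block (adjusted p = 0.24 in mature, 0.051 without a stage word and 0.33 in young kidney). The mature arrays read 4593 to 6180 in set 1 and 8186 to 13597 in set 3, so inside set 1 the mature minus immature difference was -0.23 ± 0.21 (adjusted p = 0.66). Inside set 2 the 6 young arrays (6897 to 7498) lay above the 7 immature ones (5040 to 6112), with a rise of 0.38 ± 0.07 (adjusted p = 0.00064). In that comparison 14.7% of all probe sets did not overlap and 29.3% were called.

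Hao2 (rc_AI232087_at) encodes the peroxisomal oxidase of long-chain 2-hydroxy acids, best known in rat kidney. Its median was 9740 in immature kidney (6366 to 12140), 11564 in young kidney (8896 to 14560), 12708 without a stage word (8118 to 16363) and 12518 in mature kidney (4024 to 17167). All groups overlap, and none of the 3 comparisons with immature kidney passed (0.19 ± 0.15 in mature kidney, adjusted p = 0.35). Set separates the later arrays: without a stage word Hao2 read 8118 to 9938 in set 2 and 12251 to 16363 in set 3. With the set as a block the sign turned in each comparison, to -0.27 ± 0.10 in mature kidney (adjusted p = 0.061). Inside set 2 Hao2 was lower without a stage word than in immature kidney (-0.26 ± 0.08, adjusted p = 0.013), in a comparison that called 43.4% of probe sets.

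Gatm (U07971_at) encodes glycine amidinotransferase, which makes the creatine precursor guanidinoacetate and is abundant in mammalian kidney. Its median was 5389 in immature kidney (2761 to 6297), 5451 in young kidney (4381 to 6634), 4015 without a stage word (3291 to 6206) and 5088 in mature kidney (1038 to 6822). The lowest 2 values, 1038 and 1376, came from mature replicates 1 and 9. The mature minus immature difference was -0.26 ± 0.18 with all arrays (adjusted p = 0.29) and 0.03 ± 0.12 without those arrays (adjusted p = 0.85). Inside set 2 Gatm separated the arrays without a stage word from the others. There the 6 arrays without a stage word (3291 to 3877) lay below the 6 young (5329 to 5932) and the 7 immature arrays (5297 to 6297). It fell by 0.60 ± 0.07 against young kidney (adjusted p = 3.2e-06) and by 0.62 ± 0.06 against immature kidney (adjusted p = 2.9e-07). The comparison with young kidney called 27.1% of probe sets, and 13.1% did not overlap. In that with immature kidney 43.4% were called and 20.9% did not overlap. Inside set 3 the difference between the arrays without a stage word and young ones was -0.19 ± 0.30 and did not pass.

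**Figure D3:**
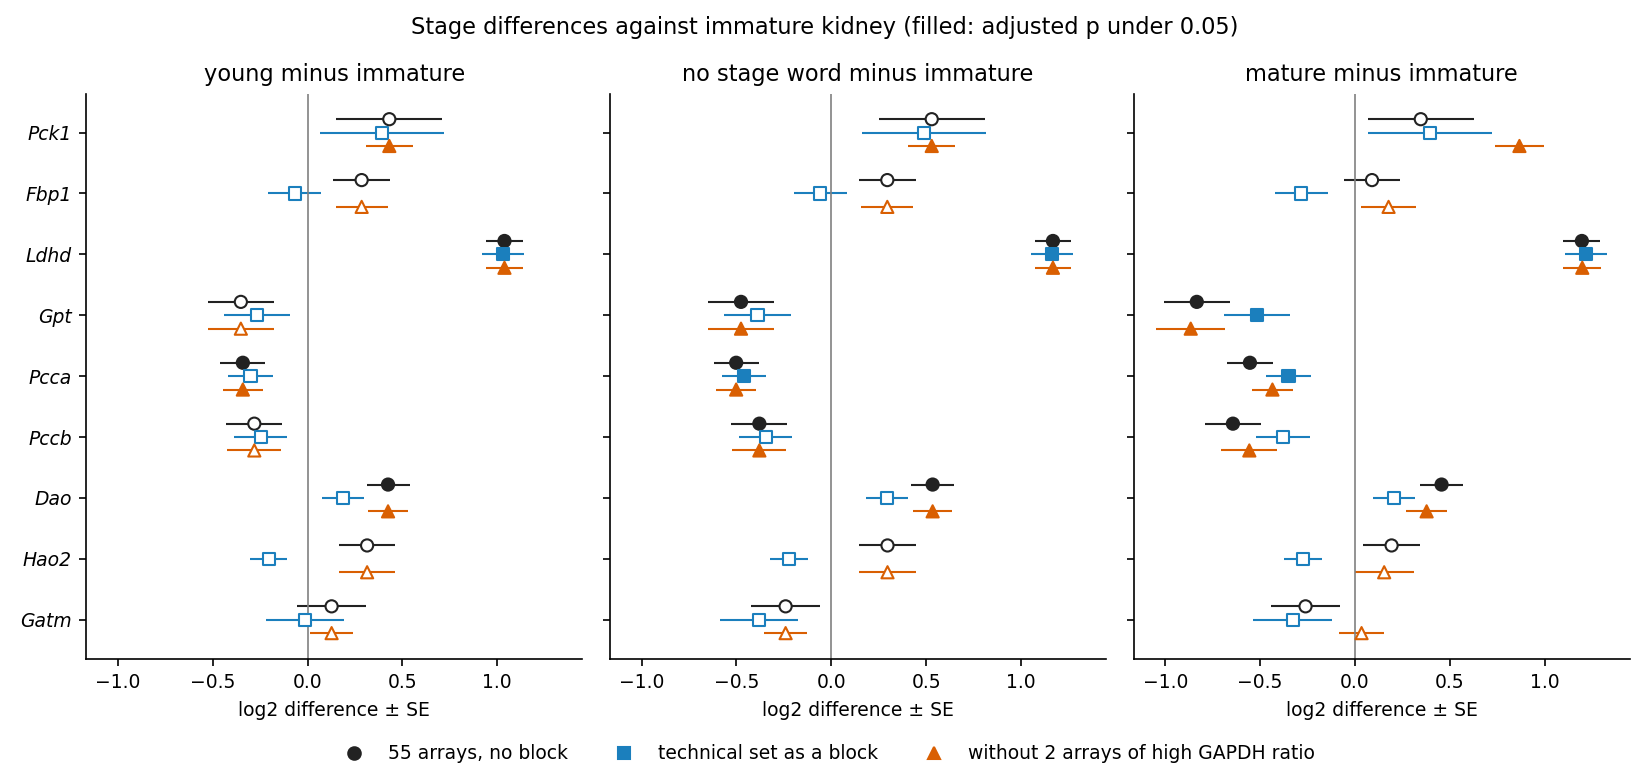
Log2 difference from immature kidney, with its standard error, for the 9 genes in each later group. Black points use all 55 arrays, blue ones the technical set as a block and orange ones leave out the 2 arrays of high GAPDH ratio, and filled points passed at an adjusted p under 0.05. Ldhd is filled in every setting, Pck1 in none of the fits with both arrays, and Dao in none with the block.

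The stages were also compared on each side of 600 on X56596_at. Below 600 (11 mature, 11 young and 10 immature arrays), 6 of the 9 genes passed in mature against immature kidney, where 31% of probe sets passed. They were Ldhd (1.34 ± 0.10), Dao (0.68 ± 0.11) and Hao2 (0.36 ± 0.14) on the higher side and Gpt (-1.02 ± 0.18), Pcca (-0.63 ± 0.13) and Pccb (-0.60 ± 0.16) on the lower. In young against immature kidney there, 6 of 9 passed against 21.7% of probe sets, with Fbp1 (0.45 ± 0.14, adjusted p = 0.020) in the place of Hao2. Without the 2 arrays of high GAPDH ratio, Hao2 no longer passed in mature against immature kidney (adjusted p = 0.064), and Fbp1 (0.47 ± 0.12, adjusted p = 0.0034) and Pck1 (0.83 ± 0.14, adjusted p = 7.6e-06) did, in a fit that called 30% of probe sets. Of the 11 mature arrays below 600, 10 lie in set 3, which has no immature array, and 1 in set 1. The immature ones there lie in set 1 (3 arrays) and set 2 (7), and the young ones in set 2 (3) and set 3 (8). Mature against immature kidney below 600 can thus hardly be told apart from set 3 against sets 1 and 2.

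Above 600 (3 arrays in each group) Ldhd was the only one of the 9 to pass against immature kidney in the fit of all arrays. It read 1050, 1185 and 1374 in mature kidney and 469.0, 894.5 and 920.7 in immature kidney, without overlap, a rise of 0.70 ± 0.19 (adjusted p = 0.025). In young kidney it read 1318, 1452 and 1462, a rise of 0.94 ± 0.19 (adjusted p = 0.0015). On this side all immature and mature arrays lie in set 1 and all young ones in set 2. For every gene, young against immature kidney here cannot be told apart from set 2 against set 1. Mature against immature called 2.91% of all probe sets there and young against immature 5.87%. Pck1 read 2827, 2977 and 4009 in immature kidney, 6144, 7094 and 7140 in young kidney and 5815, 6189 and 7773 in mature kidney, with no overlap between immature and either later stage. That was so for 20.3% of probe sets in mature against immature and 34.7% in young against immature kidney. The fit's spread for Pck1 includes the 2 arrays of high GAPDH ratio, and its difference did not pass in mature kidney (1.01 ± 0.60, adjusted p = 0.49). With those arrays left out of the fit, the same difference had an SE of 0.24 and passed (adjusted p = 0.0052), as it did in young kidney (1.06 ± 0.24, adjusted p = 0.0022). That fit called 6.1% of probe sets in mature and 13% in young against immature kidney. Dao, Fbp1 and Hao2 had negative differences above 600 in mature kidney (-0.33, -0.70 and -0.42), none past the threshold with all arrays in the fit. Without the 2 arrays Fbp1 passed there (adjusted p = 0.043). Mature replicate 12, with a GAPDH ratio of 2.62, stayed in that fit. It read lowest of the 3 mature arrays above 600 for Dao, Fbp1 and Hao2. Whether a stage difference depends on the side was not tested.

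**Figure D4:**
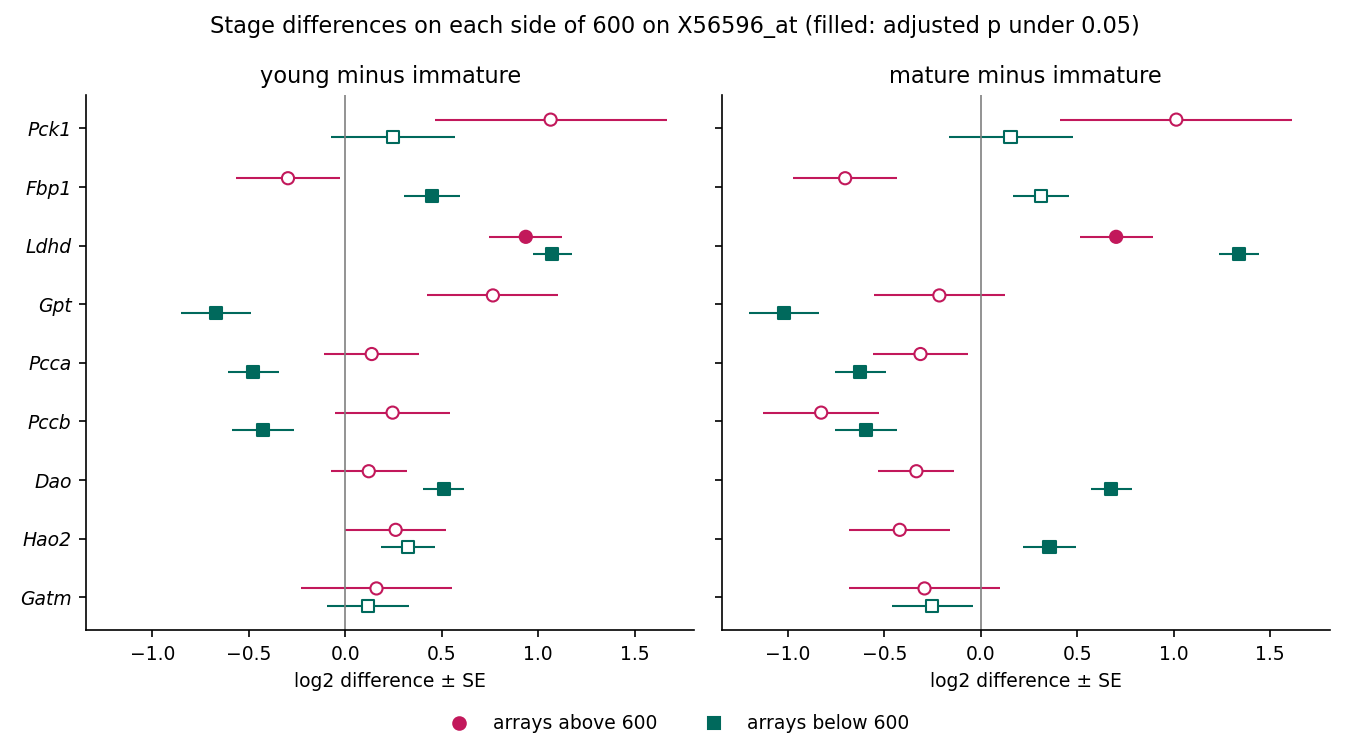
Log2 difference from immature kidney, with its standard error, on the arrays above 600 (circles, 3 in each group) and below 600 (squares) on X56596_at, for young and mature kidney. Filled points passed at an adjusted p under 0.05: Ldhd on both sides, and the other filled genes below 600 alone. Above 600 the immature and mature arrays lie in set 1 and the young ones in set 2. Below 600, 10 of the 11 mature arrays lie in set 3, which has no immature array.

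Set beside each other within a stage, the sides overlapped for 35 of 36 gene and group pairs. The exception was Dao in mature kidney, at 4593, 5037 and 5999 on the 3 arrays above 600 and 6180 to 13597 on the 11 below. All 3 arrays above 600 lie in set 1, and so does the lowest of the 11. Of all probe sets 2.52% did not overlap between the sides in immature kidney, 5.75% in young kidney, 5.26% without a stage word and 5.08% in mature kidney. Inside single sets 5 of 27 pairs did not overlap, all higher above 600, with 3 arrays on each side. They were Pck1 and Ldhd without a stage word in set 2, where 19.7% of probe sets did not overlap, Pck1 in young kidney in set 2 (17.1%), and Pccb and Gatm in immature kidney in set 1 (11.7%). Because the sides were read from the arrays themselves, these values are a description without a test.

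The other genes of these pathways were counted from lists, to be read against the 10.3% of all probe sets that rose and the 14.1% that fell in mature kidney, and the 9.47% and 9.21% in young kidney. With the set as a block, 12.6% of all probe sets were called in mature and 8.89% in young kidney, in either direction. In mature against immature kidney, 0 of 14 further genes of gluconeogenesis and its shared steps passed in limma (3 at an unadjusted p under 0.05, all higher), and their median difference was -0.02 against 0.04 over all probe sets. With the set as a block 2 of the 14 were called there, both higher. They were pyruvate carboxylase Pc (0.55 ± 0.13, adjusted p = 0.0032, against 0.28 without the block), which makes oxaloacetate, and the cytosolic glycerol-3-phosphate dehydrogenase Gpd1 (1.04 ± 0.37, just under the threshold). Pc was named after its values were seen, as were Bcat2, Bhmt and Nr3c1. In young kidney 2 of 14 rose and 1 fell. Gpd1 rose by 1.13 ± 0.34 and the phosphoglycerate mutase Pgam1 by 0.39 ± 0.11, while Got1, cytosolic aspartate aminotransferase, fell by 0.48 ± 0.14. None of these 3 passed with the set as a block (adjusted p = 0.078, 0.051 and 0.39).

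Glycolysis had 4 of 15 genes higher and 1 lower in mature kidney. Hexokinase Hk1 rose by 0.51 ± 0.11 and the liver and red cell pyruvate kinase Pklr by 0.56 ± 0.18, while the phosphofructokinase Pfkp fell by 0.53 ± 0.12. These 3 passed with the set as a block too. Pfkfb1, which makes and removes an activator of phosphofructokinase, rose by 0.74 ± 0.19 and did not pass with the block. In young kidney 1 of the 15 rose, Hk1 (0.38 ± 0.11, adjusted p = 0.0032 with the block). Pfkp fell there (-0.68 ± 0.12, adjusted p = 0.0015 with the block). With the block 2 rose and 1 fell in young kidney. Of 11 genes of propionate and branched-chain amino acids, Bckdk, the kinase that restrains branched-chain keto acid breakdown, rose in mature kidney (0.71 ± 0.24, adjusted p = 0.19 with the block), and Bckdha, a subunit of that complex, fell in young kidney (-0.72 ± 0.23, adjusted p = 0.36 with the block). With the block the mature call in this list was Bcat2, the mitochondrial branched-chain aminotransferase, which rose (0.74 ± 0.22, adjusted p = 0.018, against 0.06 without the block). Pcca and Pccb are not counted in that list.

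Of 9 further genes of glutamine, glutamate and alanine, Slc25a10, the mitochondrial dicarboxylate carrier, rose in mature kidney (0.26 ± 0.09). In young kidney Glul, glutamine synthetase, rose (0.68 ± 0.23), and neither passed with the block (adjusted p = 0.64 and 0.92). Got1, which is also in this list, fell in young kidney (-0.48 ± 0.14, adjusted p = 0.39 with the block). Of 10 genes of arginine, creatine and proline, Gamt, which methylates the product of Gatm into creatine, rose in mature kidney (0.46 ± 0.15, adjusted p = 0.0066 with the block). The creatine kinase Ckb (0.58 ± 0.21) rose and the mitochondrial arginase Arg2 (-0.47 ± 0.14) fell there without passing with the block. Of 6 peroxisomal and hydroxyacid oxidase genes, Acox2, an oxidase of branched-chain acyl-CoA, fell (-1.01 ± 0.18), and catalase Cat (0.59 ± 0.22) and the mitochondrial aminotransferase Agxt2 (0.28 ± 0.07) rose in mature kidney. Acox2 and Agxt2 passed with the block and Cat did not.

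Among 21 further amino acid genes, 5 rose and 2 fell in mature kidney, and 7 rose and 0 fell in young kidney (8 and 0 at an unadjusted p under 0.05). With the block 4 rose and 0 fell in mature kidney, and 2 rose and 0 fell in young kidney. Among the 4 was Bhmt, which remakes methionine from homocysteine (0.64 ± 0.17, adjusted p = 0.0084, against 0.18 without the block). Phgdh, which opens serine synthesis, rose by 0.55 ± 0.09 in mature kidney (adjusted p = 0.0014 with the block). Hal, which opens histidine breakdown (0.48 ± 0.17), and Haao of tryptophan breakdown (0.47 ± 0.12) rose and the dimethylglycine dehydrogenase Dmgdh (-0.75 ± 0.26) fell in mature kidney, without passing with the block. Sardh, sarcosine dehydrogenase, rose in young kidney (0.46 ± 0.12, adjusted p = 0.030 with the block), as did the serine dehydratase Sds (0.93 ± 0.30), the aminoacylase Acy1 (0.56 ± 0.13) and Hal (0.47 ± 0.17), which did not pass with the block.

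Among 15 regulators and fuel switches, 4 rose and 1 fell in mature kidney, and 3 rose and 1 fell in young kidney. With the block 3 rose and 1 fell in mature kidney, and 1 rose and 0 fell in young kidney. The one that fell was the glucocorticoid receptor gene Nr3c1 (-0.53 ± 0.15, adjusted p = 0.014), whose difference without the block was 0.93 and did not pass (adjusted p = 0.052). Hnf4a, a nuclear receptor of the proximal tubule and liver, rose by 0.80 ± 0.17 in mature kidney (adjusted p = 0.00042, and 1.11 with the block, adjusted p = 1.6e-06) and by 0.76 ± 0.17 in young kidney. Pdk2, a kinase that turns down pyruvate dehydrogenase, rose by 0.52 ± 0.12 and the receptor gene Igf1r by 0.62 ± 0.11 in mature kidney, both also with the block. The glucagon receptor gene Gcgr (-0.84 ± 0.25) fell in mature kidney without passing with the block. In young kidney Igf1r (0.51 ± 0.11) and the insulin signalling gene Irs2 (0.48 ± 0.16) rose and Cpt1a, which admits long-chain fatty acids to mitochondria (-0.51 ± 0.16), fell, none past the threshold with the block.

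**Figure D5:**
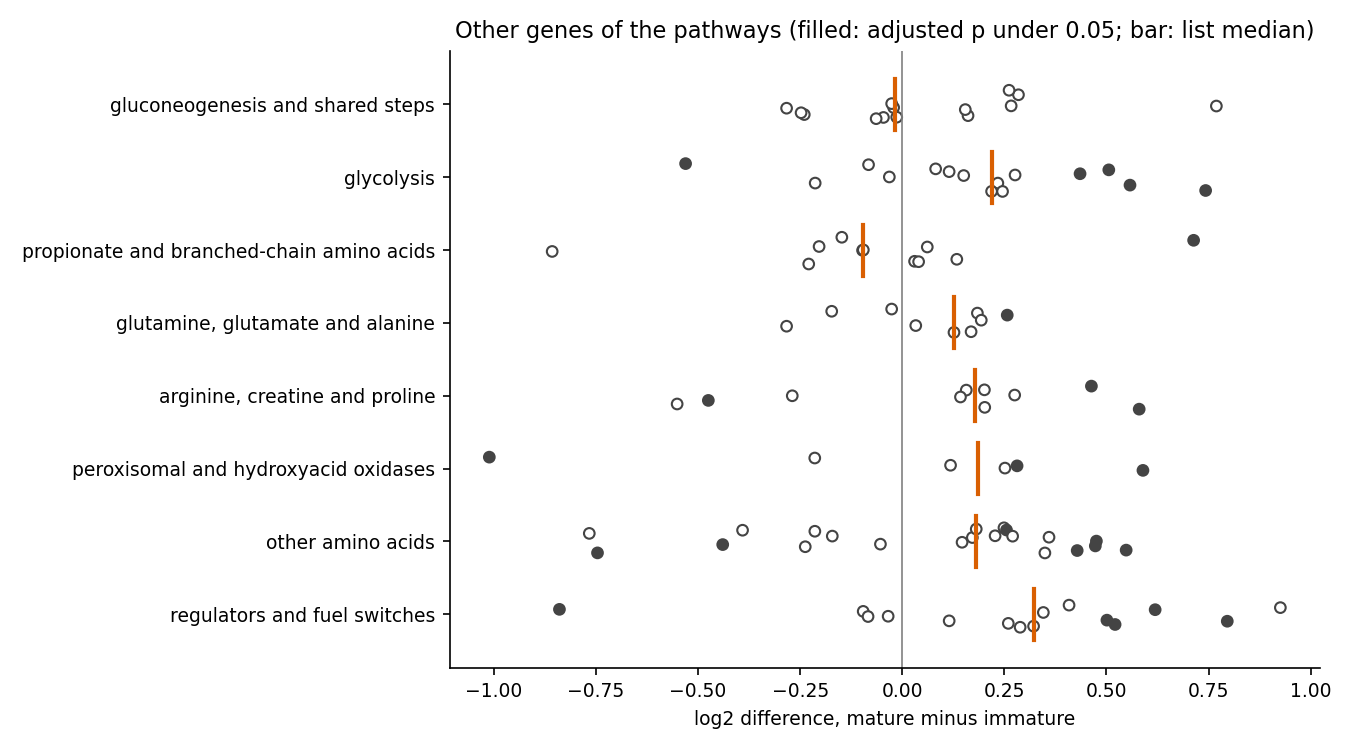
Log2 difference, mature minus immature, for every tested gene of 8 lists other than the 9 enzymes, with filled points past an adjusted p of 0.05 and orange bars at the list medians. The medians run from -0.10 (propionate and branched-chain amino acids) to 0.32 (regulators and fuel switches).

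Some markers of cell types moved with stage as well. Of all probe sets 10.3% rose and 14.1% fell in mature kidney, and 9.47% rose and 9.21% fell in young kidney. Of 16 proximal tubule markers, 6 rose and 2 fell in mature against immature kidney, and 9 rose and 2 fell in young kidney. With the block these counts were 5 and 0 in mature kidney and 4 and 0 in young kidney. The block fits called 12.6% and 8.89% of all probe sets there, in either direction. Of 9 markers of the distal nephron and collecting duct, 1 rose and 5 fell in mature kidney (0 and 5 with the block), with summed intensities of 9801 to 14643 in mature and 14078 to 20921 in immature kidney. In mature kidney 1 of 5 thick ascending limb markers rose and 1 fell (0 and 1 with the block). Of 4 immune markers 1 rose and 1 fell (1 and 1 with the block). Of 3 podocyte and 5 endothelium markers 1 each rose (0 with the block), and 1 of 2 erythroid markers fell (also with the block). Of 6 liver, 2 fat, 2 adrenal and 3 muscle markers tested, 0 passed in limma in mature or young against immature kidney. At an unadjusted p under 0.05, 2 liver markers passed in mature kidney, and 1 liver and 1 adrenal marker in young kidney. The part of these shifts in the changes of the 9 enzymes was not tested.

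The genes most like each enzyme were found by the correlation, over the 55 arrays, of deviations from the mean of each stage group on its side of 600. Arrays of 1 technical set and quality share such deviations, so these values describe the arrays. Pck1 was most like Slc25a5 (r = 0.925), Cth (r = 0.925) and Ehhadh (r = 0.924), values that dropped to 0.499, 0.298 and 0.509 without the 2 arrays of high GAPDH ratio. Gatm was most like Ywhae (r = 0.937, and 0.791 without those arrays), Ctsl and Gclc. Fbp1 was most like Bsg (r = 0.845), Slc3a1 and Ctsb. Hao2 was most like Kap (r = 0.797), Slc34a1 and Slc3a1, of which the last 2 are transporter genes of the proximal tubule.

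Pcca was most like Tomm20 (r = 0.863), Twf1 and Dmgdh, and Pccb was most like Car2 (r = 0.831), Eif4a2 and Naa20. Dao was most like Atp5po (r = 0.743), Ngfr and COX3. Ldhd had no close partner, its highest values being with Gc (r = 0.55), Vcp and Pnpla3, and the same held for Gpt with Tmeff1 (r = 0.512), Adra1d and Ptpn2. Among the 9 genes the highest correlation over all arrays was between Pck1 and Gatm (r = 0.815, and 0.397 without the 2 arrays), and without the 2 arrays it was between Fbp1 and Hao2 (r = 0.59, and 0.482 with all arrays). Pcca and Pccb followed each other (r = 0.623, and 0.552 without the 2 arrays), as did Pck1 and Fbp1 (r = 0.674 and 0.543), while Ldhd and Pck1 did not (r = 0.059).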

How the data were processed

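Rat kidney RNA was hybridised to 55 Affymetrix arrays of 1 colour. The deposited values are intensities on a linear scale, 8799 probe sets per array, as the values themselves show. How probes were summarised and arrays scaled is not given in the sources used here. On every array the 2% trimmed mean was 500.2 to 500.7, so the deposited scaling was kept, and no 2 arrays held identical values. Probe sets were named from the platform annotation (7018 with 1 symbol, 308 with several, 1473 with none).

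An offset of 15.82 (0.1 of the median) was added and log2 taken, so fold changes understate those of dim probe sets. Probe sets with a mean below the 25th percentile were left out, as were 59 control probe sets, leaving 6555. All arrays entered 1 linear model (limma 3.58.1, R 4.3.3, lmFit and eBayes) with 6 contrasts and an F test, 2-sided, Benjamini-Hochberg adjusted over all probe sets, threshold 0.05. "Called" and "passed" mean an adjusted p under 0.05. The fit was also run on simulated data. These held no technical sets and no arrays of high GAPDH ratio, so that run does not bear on either limit. The 3 technical sets come from Ward clustering of 42 control probe sets and are not in the labels.

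The enzymes, lists and tests were chosen with earlier results of these data known. Other genes were named by rule: up to 4 called genes of each list with the largest difference in mature and in young against immature kidney, and the 3 genes most like each enzyme. A gene was represented by its brightest probe set. Alternatives covered scaling, offset, filter, weights, prior variance, blocks, array subsets and leaving out each array. Adding the block to the removal of the 2 arrays of high GAPDH ratio, and removing them inside a set or side, were chosen after seeing the data. Signal over background was not analysed here. Figures used matplotlib 3.10.9.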

Additional observations from a re-analysis of the deposited data

How the results depend on the processing

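The differences of the 9 enzymes from immature kidney were recomputed under every alternative, and of the 432 values 321 kept direction and side of the threshold, 34 lost a call, 29 gained one and 48 changed direction. No changed direction belonged to Ldhd or Pck1. The technical set as a block changed direction for Fbp1 (-0.28 mature, -0.068 young, -0.057 without a stage word), Hao2 (-0.27, -0.21 and -0.22) and, in young kidney, Gatm (-0.014). With the set as a block and without the 2 arrays of high GAPDH ratio these were Fbp1 (-0.19, -0.12 and -0.11), Hao2 (-0.27, -0.21 and -0.23) and Gatm (-0.14). Quantile normalization turned Fbp1 (-0.24 mature, -0.085 young, -0.15 without a stage word) and Hao2 (-0.18, -0.026 and -0.16), while the median of all probe sets moved by under 0.1. Above 600, with or without the 2 arrays in the fit, the turned values were Fbp1 (-0.70 mature, -0.30 young, -0.19 without a stage word), Dao (-0.33) and Hao2 (-0.42) in mature kidney, Gpt (0.77), Pcca (0.14) and Pccb (0.25) in young kidney, and Gpt (0.27) without a stage word. Inside set 1 they were Fbp1 (-0.48), Dao (-0.23) and Hao2 (-0.39), and inside set 2 Fbp1 (-0.022), Hao2 (-0.041) and Gatm (-0.022) in young kidney and Hao2 (-0.26) without a stage word. Gatm turned in mature kidney without the 2 arrays (0.035, and 0.14 below 600), and in young kidney with array weights (-0.002). The cause was not tested.

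The count of enzymes called in mature against immature kidney, 5 with all arrays, was 3 with the set as a block, 1 above 600 (3 without the 2 arrays in the fit) and 0 inside set 1 (fewer arrays), and 5 to 6 on leaving out single arrays. In young kidney the count of 3 became 5 with array weights, 1 with the block, 1 above 600 (2 without the 2 arrays), 6 below 600 (also without the 2 arrays) and 2 to 3 without single arrays. Without a stage word the count of 5 became 8 with array weights, 2 with the block, 1 above 600 (2 without the 2 arrays) and 3 to 6 without single arrays. The count of 3 arose on leaving out any 1 of several arrays, immature replicate 9 among them, and the 6 without mature replicate 9. The F test's 5 became 8 with array weights, 2 with the block and 5 to 6 without single arrays. The share of all probe sets called was not counted with array weights or without single arrays, nor above 600 except in mature and young against immature kidney. Below 600 without the 2 arrays it was counted in mature against immature kidney alone. With the block without the 2 arrays it was counted only in mature against immature and mature against young kidney. Such counts therefore cannot be read as particular to the enzymes. Mature against young kidney had 0, and 2 with array weights (Pck1 and Gpt), 1 above 600 (Pccb, lower, also without the 2 arrays), and 1, Pck1, without the 2 arrays in the fits with the block, inside set 3 or below 600. The arrays without a stage word against young had 0, and 4 inside set 2 (Gatm, Gpt, Pcca and Pccb), 1 with array weights and 1 with the block without the 2 arrays (Gatm in both). Inside set 2 that comparison called 27.1% of all probe sets. Mature against no stage word had 0, and 1 above 600 (Dao, lower, also without the 2 arrays) and 2 (Pck1 and Gatm, higher) with the block without the 2 arrays. Without single arrays these 3 counts stayed at 0. Above 600 the mature and immature arrays lie in set 1 and the others in set 2. Stage and set cannot be told apart there in comparisons across these sets. Below 600 they can hardly be told apart in mature against immature kidney, since 10 of the 11 mature arrays lie in set 3.

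No paired analysis was possible because the labels give no replicate numbers that the groups share. The main limits are the technical sets, which leave mature and young arrays together in set 3 alone and mature and immature arrays together in set 1 alone, the 2 mature arrays of high GAPDH ratio, and single probe sets per gene. The number of arrays limits the precision, and signal over background was not analysed.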
